A study of Mus musculus with 6 samples.

Results

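The mitochondrial genome of the mouse (mtDNA) holds 37 annotated genes, and their transcripts were compared between parental (P) and axitinib-resistant (AxR) 4T1 cells. The genes were taken as every gene whose symbol begins with mt-, which gave 37 of the 53465 genes in the deposited count table. They comprised 13 protein-coding genes, 2 ribosomal RNAs (rRNAs) and 22 transfer RNAs (tRNAs). 4T1 is a mouse mammary carcinoma line, and axitinib is an inhibitor of the VEGF receptor kinases. RNA from 3 P and 3 AxR samples was sequenced as stranded, poly(A)-selected libraries that held between 15495260 and 17294525 estimated counts.

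The AxR line came from mice implanted with 4T1 cells and dosed with axitinib at 100 mg/kg/day. A metastasis in lung or lymph node was excised, and its cells were grown on in 0.5 μM axitinib, by the treatment labels for more than 2 months. P cells were the vehicle-treated parental line. The growth label, unlike the treatment label, names 0.5 μM axitinib for all 6 samples. AxR is 1 derived line, so drug exposure, passage through an animal, the metastatic site and selection of a subclone cannot be told apart. Neither the labels nor the study say that the 3 samples of a line were separate cultures, so p-values measure only the spread between these samples. Of 8 epithelial carcinoma markers, 7 were tested and 6 were higher in AxR, where 32.8% of all 13550 genes tested were higher. The other one tested, Cldn4, was lower (log2 fold change −0.17). The 8 markers summed to 2124 to 2341 CPM (read counts scaled by library size) in P and 3214 to 3392 CPM in AxR. Leukocyte markers summed to 3.52 to 3.78 CPM in P and 8.19 to 8.29 CPM in AxR. Most of this was Cd68, the only one tested, with means of 3.39 CPM in P and 8.02 CPM in AxR (log2 fold change 1.24). Tyrobp, Fcer1g and Cd3e had 0 counts in every library. Fibroblast markers summed to 22.5 to 24.1 CPM in P and 10.2 to 11.6 CPM in AxR. Most of this was Pdgfra, the only one tested, with means of 22.6 and 10.1 CPM (log2 fold change −1.15). Endothelial markers, none of them tested, summed to 0.425 to 0.693 and 0.191 to 0.383 CPM. Lung epithelial markers summed to 0.577 to 1.15 and 4.15 to 4.21 CPM. Most of the AxR sum was Foxj1, the only one tested, with means of 0.578 and 3.797 CPM (log2 fold change 2.72). Col3a1, Thy1, Lum, Kdr, Emcn and Scgb1a1 of these lists were at 0 in every library, and the part of other cell types in the results was not tested.

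mtDNA is transcribed from both strands into long precursor RNAs, in which tRNAs lie between most of the longer genes. The tRNAs are cut out by RNase P and the nuclease Elac2, which frees the rRNAs and messenger RNAs (mRNAs) on either side, and most mRNAs are then given a short poly(A) tail by the polymerase Mtpap. The rRNAs build the mitochondrial ribosome, and the proteins it makes are core subunits of the respiratory chain and of ATP synthase, which join subunits encoded in the nucleus. All the proteins that copy, transcribe and translate mtDNA are themselves nuclear gene products.

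Several sequences set how these genes could be counted. Positions are on genome build GRCm38 and sequences were read from the GENCODE M21 transcripts. The first shows mt-Tl1, a leucine tRNA, on the plus strand at chrM:2661-2765, with the tRNA in capitals between the last bases of mt-Rnr2 and the first bases of mt-Nd1. There is no base between the 3 genes, so a fragment of uncut precursor would span them.
mt-Tl1: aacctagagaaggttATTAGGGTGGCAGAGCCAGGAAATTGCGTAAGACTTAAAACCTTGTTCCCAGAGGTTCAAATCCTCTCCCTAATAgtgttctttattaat

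The next sequences show 2 places where protein-coding genes overlap on the plus strand and their reads can be divided between both genes, the third being the single base that mt-Atp6 and mt-Co3 share. mt-Atp8 and mt-Atp6 share the 43 bases in capitals within chrM:7915-7981, and mt-Nd4l and mt-Nd4 share the 7 bases in capitals within chrM:10147-10193.
mt-Atp8 and mt-Atp6: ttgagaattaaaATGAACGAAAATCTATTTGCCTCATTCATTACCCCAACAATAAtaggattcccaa
mt-Nd4l and mt-Nd4: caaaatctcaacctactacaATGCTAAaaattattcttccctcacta

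The last sequences compare mtDNA genes with copies of mtDNA that lie on nuclear chromosome 1. The first 60 bases of mt-Atp6, on the plus strand at chrM:7927-7986, are identical to those of the nuclear pseudogene Gm10925, on the minus strand at chr1:24614592-24614651. For mt-Nd3, on the plus strand at chrM:9459-9481, and the pseudogene Gm28438, on the minus strand at chr1:24613097-24613119, the only difference along the aligned gene is T3C, marked in capitals and counted from 1 at the 5′ end of mt-Nd3 with the mtDNA base first.
mt-Atp6: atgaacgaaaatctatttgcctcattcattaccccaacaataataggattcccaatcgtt
Gm10925: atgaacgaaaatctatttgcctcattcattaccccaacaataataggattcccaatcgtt
mt-Nd3: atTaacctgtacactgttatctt
Gm28438: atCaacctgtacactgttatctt

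mtDNA genes took a larger share of the library in every AxR sample than in any P sample. The 37 genes held 1.28, 1.25 and 1.31% of the counts in P replicates 1 to 3, and 2.15, 1.87 and 1.63% in AxR replicates 1 to 3. The mean was 1.28% ± 0.0310 (SD, n = 3) in P and 1.88% ± 0.259 (SD, n = 3) in AxR, a ratio of 1.47. The 13 protein-coding genes held most of these counts, with 1.22, 1.19 and 1.24% in P and 1.83, 1.63 and 1.44% in AxR, a ratio of 1.34. The 2 rRNAs held 0.0593, 0.0564 and 0.0673% in P and 0.318, 0.235 and 0.184% in AxR, a ratio of 4.03. For all 37 genes and for both classes the lowest AxR sample lay above the highest P sample. The exact two-sided permutation test gave p = 0.1 for each of these shares, which is the smallest p that 3 against 3 samples can give. Wilson 95% intervals, which cover counting error only, reached at most 0.00703 percentage points to either side of a share, far less than the spread between the AxR samples.

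The tRNAs were all but undetected in these libraries. Of the 22 tRNAs, 15 had no count in any library, and the other 7 summed to 3 counts over the P libraries and 13 over the AxR libraries, with no more than 3 in any library. The minus-strand genes mt-Ts1, a serine tRNA, and mt-Tn, the asparagine tRNA, had 6 and 4 counts in all. A tRNA with no count could still have been present in a library at up to 0.171 to 0.196 CPM, the level of 3 counts. The tRNAs are 59 to 75 bases long and the libraries were poly(A)-selected, so their levels in the cells cannot be read from these counts. A change in the tRNAs was not detectable, and the parts of depth and library preparation were not tested. mt-Tl1, printed above, had a single count in AxR replicate 3, while mt-Rnr2 and mt-Nd1 on either side of it held at least 6872 and 15615 counts in each library.

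**Figure D1:**
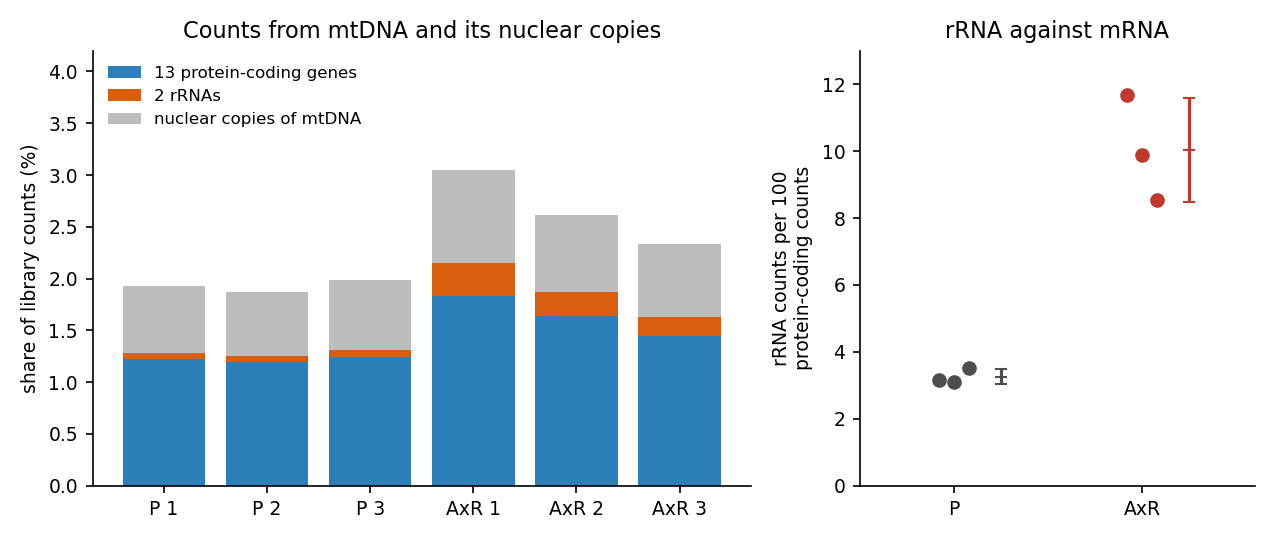
Left, share of library counts (%) given to the 13 protein-coding mtDNA genes, the 2 mtDNA rRNAs and the nuclear copies of mtDNA, stacked for each P and AxR library. Right, rRNA counts per 100 protein-coding mtDNA counts with the nuclear copies added, as points for each library with the mean and SD. The stacks reach 1.87 to 1.99% in P and 2.33 to 3.05% in AxR, and the rRNA ratio 3.11 to 3.51 in P and 8.55 to 11.7 in AxR.

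Reads that match both an mtDNA gene and a near-identical nuclear copy can be given to either, and for several pairs most counts were given to the copy. Of 15 annotated nuclear pseudogenes that match mtDNA at 90% identity or more, 7 lie side by side on the minus strand of chr1 between positions 24611535 and 24616197. The copies of mt-Atp6, mt-Co2, mt-Co3, mt-Nd3 and mt-Nd4l cover 99.0 to 99.9% of the mtDNA gene and have no difference from it apart from the T3C printed above. In these 5 pairs, mt-Co2 received 2.22 to 3.63% of the counts of the gene and its copy, mt-Atp6 received 2.40 to 6.16%, mt-Co3 received 1.99 to 17.6%, mt-Nd3 received 9.73 to 26.9% and mt-Nd4l received 16.05 to 23.6%. The copies of mt-Co1 and mt-Nd4 on chr1 cover only 31.8 and 63.6% of the gene, and there the mtDNA gene received 99.6 to 100% and 99.8 to 100%. All nuclear copies together held 0.620 to 0.674% of the library in P and 0.707 to 0.901% in AxR.

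In P, counts given to the mtDNA gene varied more between samples than the sum of gene and copy, for the 5 genes with a near-complete copy. mt-Co3, a subunit of cytochrome c oxidase (complex IV), had 602, 3628 and 2410 counts in the 3 P libraries, a 6.03-fold range. The sum of mt-Co3 and its copy Gm28437 was 30203, 31668 and 30038 counts, a 1.05-fold range. mt-Co3 was the widest, and in P the others had ranges of 1.41 to 2.55-fold, against 1.03 to 1.26-fold for their sums. In AxR the contrast was small for mt-Nd3, with 670, 844 and 651 counts and sums of 6885, 5736 and 6032. The copies with the most counts were Gm10925, Gm28661, Gm28437 and Gm28438, with 261649, 202297, 194271 and 24381 counts over the 6 libraries. In the edgeR quasi-likelihood fit, with p-values adjusted by Benjamini-Hochberg, Gm28661 was higher in AxR by 0.32 (log2, adjusted p = 0.00835) and Gm28438 by 1.06 (adjusted p = 0.000228). Gm10925 differed by 0.17 (adjusted p = 0.269) and Gm28437 by 0.36 (adjusted p = 0.0553), and neither passed the threshold of 0.05. Whether the reads came from mtDNA or from the nuclear copies was not tested. Values are therefore given as deposited and, chosen after seeing the data, with the counts of each copy added to its mtDNA gene, which bears mainly on the 5 genes with a near-identical copy along nearly their whole length on chromosome 1.

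**Figure D2:**
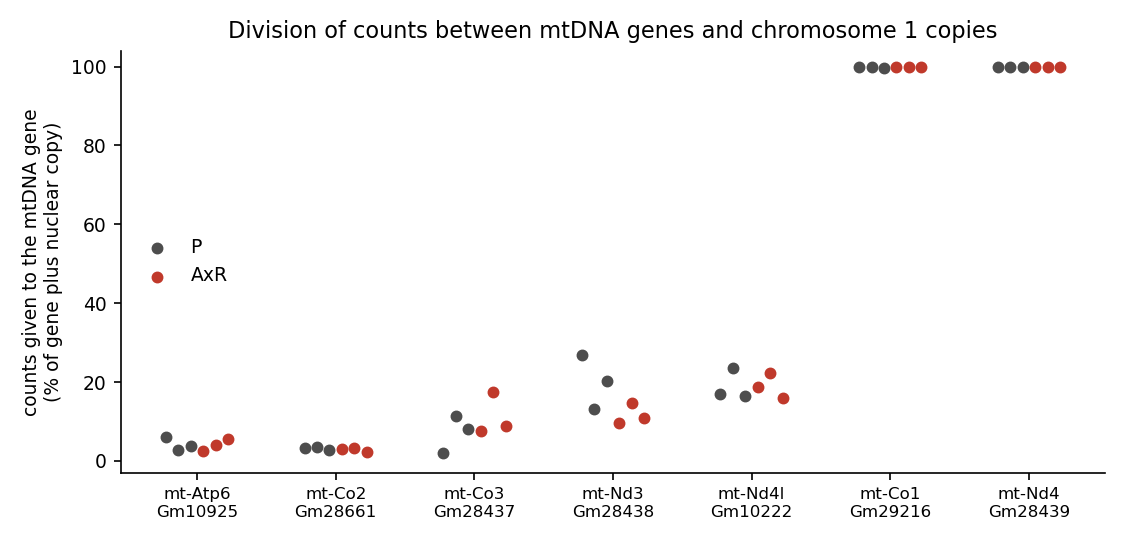
Percent of the counts of an mtDNA gene and its chromosome 1 copy that were given to the mtDNA gene, 1 point for each P (grey) and AxR (red) library, for 7 pairs named on the horizontal axis. The 5 pairs whose copy covers nearly the whole gene lie between 1.99 and 26.9%, and the pairs of mt-Co1 and mt-Nd4, whose copies are partial, lie at 99.6% or above.

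The largest changes among the mtDNA genes were those of the rRNAs. mt-Rnr1, the 12S rRNA of the small ribosomal subunit (chrM:70-1024), had 163, 159 and 178 CPM in P and 654, 490 and 363 CPM in AxR. mt-Rnr2, the 16S rRNA of the large subunit (chrM:1094-2675), had 421, 397 and 502 CPM in P and 2643, 1877 and 1447 CPM in AxR. The lines did not overlap for either rRNA. mt-Rnr1 was 3.02-fold higher in AxR (log2 fold change 1.59, SE 0.251, adjusted p = 0.00506) and mt-Rnr2 4.52-fold higher (log2 fold change 2.18, SE 0.278, adjusted p = 0.00248) by edgeR's quasi-likelihood test. Of all 13550 genes tested, 63.5% passed the threshold in either direction and 32.8% were higher in AxR, while 12.7% passed and also differed by 1 or more on the log2 scale, as both rRNAs did. No nuclear copy holding counts matches either rRNA, so adding copies left their values nearly as they were, at 1.59 and 2.18.

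The rRNA counts were also compared with the mRNA counts of the same genome, a ratio that does not depend on scaling between libraries. For every 100 protein-coding mtDNA counts there were 4.85, 4.72 and 5.41 rRNA counts in P and 17.4, 14.4 and 12.7 in AxR, a 2.95-fold difference in geometric means. With the copies added the ratios were 3.17, 3.11 and 3.51 in P and 11.7, 9.89 and 8.55 in AxR, a 3.06-fold difference. The lines did not overlap on either count, with an exact permutation p of 0.1, the smallest possible, and an adjusted p of 0.214 and 0.167 over the 15 ratios tested on each count. For each mt-Rnr1 count there were 2.59, 2.498 and 2.82 mt-Rnr2 counts in P and 4.04, 3.83 and 3.99 in AxR, again without overlap (exact permutation p = 0.1). Per kilobase of gene and with the copies added, the rRNAs had the lowest levels of the 15 longer genes in P, at 174 CPM per kb for mt-Rnr1 and 278 for mt-Rnr2. On the same count in AxR, mt-Rnr2, at 1258 CPM per kb, stood above 4 protein-coding genes (mt-Nd3, mt-Nd5, mt-Nd6 and mt-Nd4l), and mt-Rnr1, at 526 CPM per kb, was still the lowest. As deposited, mt-Co2, mt-Nd3, mt-Nd4l, mt-Atp6 and mt-Co3 lay below mt-Rnr1 in both lines.

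As the libraries were poly(A)-selected, RNAs with short tails or none were read beside the rRNAs from lists chosen after seeing the data. Replication-dependent histone genes, whose mRNAs mostly lack a poly(A) tail, summed to 141 to 182 CPM in P and 190 to 259 CPM in AxR. Of the 30 histone genes tested, 12 were higher and 0 lower in AxR, beside 32.8 and 30.8% of all genes tested. The higher count was thus near that of all genes, while the lower count was below it. Their median log2 fold change was 0.82, against 0.0058 over all genes tested. The highest were Hist2h3c1, at 2.17 (adjusted p = 0.000188), and Hist1h2bk, at 1.99 (adjusted p = 0.0410), both under 2 CPM in each line. The 5 tested small non-coding RNAs and cytosolic rRNA loci had a median of −0.63, and none of them passed the test. Among these were Gm26917 at −0.66 (adjusted p = 0.0889) and Gm42418 at −0.52 (adjusted p = 0.0732). Their sum was 978 to 1110 CPM in P and 484 to 865 CPM in AxR. The part of poly(A) selection and RNA quality in the rRNA difference was not tested.

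Complex I (NADH dehydrogenase) takes 7 subunits from mtDNA, and as deposited 4 of the 7 were higher in AxR and none lower. Of all genes tested, 32.8% were higher and 30.8% lower. mt-Nd1 (chrM:2751-3707) had 973, 975 and 1018 CPM in P and 2285, 1859 and 1586 CPM in AxR, 1.93-fold higher (log2 fold change 0.95, SE 0.131, adjusted p = 0.000934). mt-Nd2 (chrM:3914-4951) had 725, 630 and 764 CPM in P and 1645, 1382 and 1163 CPM in AxR, 1.98-fold higher (log2 fold change 0.98, SE 0.146, adjusted p = 0.00182). Both genes follow the rRNAs in map order, and no AxR library overlapped a P library for either.

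mt-Nd4 (chrM:10167-11544) had 1562, 1374 and 1635 CPM in P and 2525, 2184 and 1870 CPM in AxR (log2 fold change 0.53, SE 0.118, adjusted p = 0.00695). mt-Nd5 (chrM:11742-13565) had 1166, 1025 and 1203 CPM in P and 2118, 1709 and 1448 CPM in AxR (log2 fold change 0.64, SE 0.156, adjusted p = 0.0159). The lines did not overlap for mt-Nd4 or mt-Nd5 either. The mt-Nd5 call was lost without P replicate 2 (adjusted p = 0.0627) and with no filter on low counts (adjusted p = 0.0647).

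The other complex I subunits depended on the counting or on a single library. mt-Nd3 (chrM:9459-9806) was 42.3 ± 18.7 CPM (SD, n = 3) in P and 44.5 ± 8.56 in AxR as deposited, a log2 fold change of 0.07 (adjusted p = 0.892). With the copy Gm28438 added, mt-Nd3 had 219, 166 and 226 CPM in P and 437, 366 and 343 CPM in AxR, and it passed the test at 0.91 (SE 0.153, adjusted p = 0.00316). mt-Nd4l (chrM:9877-10173) had log2 fold changes of 0.35 as deposited (adjusted p = 0.418) and 0.33 with its copy (adjusted p = 0.105). mt-Nd6 (chrM:13552-14070) is the only protein-coding gene on the minus strand, and shares 14 bases with mt-Nd5 on the other strand. It had 335, 305 and 353 CPM in P and 577, 457 and 334 CPM in AxR, so that AxR replicate 3 lay within the P range, and it did not pass (log2 fold change 0.46, SE 0.228, adjusted p = 0.148).

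Complex IV takes its catalytic subunits mt-Co1 and mt-Co2 and the subunit mt-Co3 from mtDNA. mt-Co1 (chrM:5328-6872) had 4522, 4679 and 4655 CPM in P and 6187, 5417 and 5110 CPM in AxR, a 1.21-fold difference with no overlap (log2 fold change 0.27, SE 0.0605, adjusted p = 0.00123). As deposited, mt-Co2 (chrM:7013-7696) differed by 0.14 (adjusted p = 0.687) and mt-Co3 (chrM:8607-9390) by 1.06, with an SE of 0.740 and an adjusted p of 0.283. With Gm28661 added, mt-Co2 was 1899 ± 48.8 CPM (SD, n = 3) in P and 2367 ± 341 in AxR (log2 fold change 0.32, SE 0.0879, adjusted p = 0.00991). With Gm28437 added, mt-Co3 was 1874 ± 73.3 CPM (SD, n = 3) in P and 2512 ± 362 in AxR (log2 fold change 0.42, SE 0.0889, adjusted p = 0.00212). Neither sum overlapped between the lines.

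The remaining subunits did not pass the test on either count. mt-Cytb (chrM:14145-15288), the cytochrome b of complex III, had 1979, 2141 and 2072 CPM in P and 2574, 2276 and 1925 CPM in AxR (log2 fold change 0.13, SE 0.0931, adjusted p = 0.255). mt-Atp6 (chrM:7927-8607), a proton channel subunit of ATP synthase, had a log2 fold change of 0.02 as deposited (adjusted p = 0.967). With Gm10925 added it was 2633 ± 204 CPM (SD, n = 3) in P and 2949 ± 434 in AxR, a log2 fold change of 0.16 (adjusted p = 0.210, 95% interval −0.08 to 0.41). mt-Atp8 (chrM:7766-7969), the other ATP synthase subunit, had 438, 216 and 469 CPM in P and 539, 444 and 313 CPM in AxR, with a log2 fold change of 0.21 (adjusted p = 0.687). That direction rested on the low P replicate 2, since the log2 fold change was −0.069 without it. Because mt-Atp8 and mt-Atp6 share the 43 bases printed above, their sum with the copy was also taken, at 3007 ± 333 CPM in P and 3381 ± 543 in AxR (exact permutation p = 0.5). The sum of the overlapping mt-Nd4l and mt-Nd4 with their copies was 1727 ± 132 CPM in P and 2451 ± 374 in AxR, 1.42-fold higher with no overlap (exact permutation p = 0.1, the smallest possible).

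**Figure D3:**
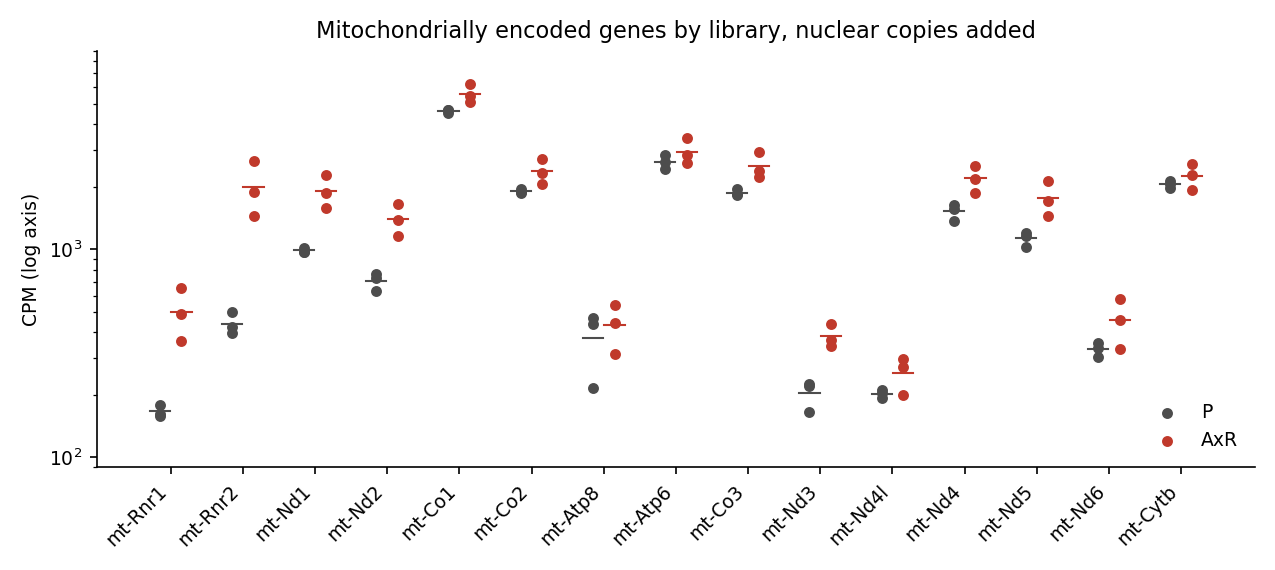
Level of the 2 mtDNA rRNAs and 13 protein-coding genes in CPM on a log axis, with nuclear copies added and genes in map order. Each point is 1 library (P grey, AxR red) and each line a mean. The rRNAs, mt-Nd1, mt-Nd2 and mt-Nd3 show the widest gaps, while mt-Atp8, mt-Atp6, mt-Nd4l, mt-Nd6 and mt-Cytb overlap between the lines.

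Counted together, 5 of the 13 protein-coding genes were higher in AxR and 0 lower as deposited, a share close to the 32.8% of all tested genes that were higher. At an unadjusted p under 0.05 none of the 13 was lower, and DESeq2 and limma-voom also called 5 higher and 0 lower. Over the alternatives that left out no library, up to 4761 of all genes were higher and up to 4337 lower as deposited. The median log2 fold change of the 13 was 0.35. With the copies added, 8 of the 13 were higher and 0 lower, where 32.8% of the 13543 genes then tested were higher and 30.7% lower, and the median was 0.42. Of the 7 complex I subunits 5 were then higher, with a median of 0.64, and of the 6 subunits of the other complexes 3 were higher, with a median of 0.24. Of the 2 rRNAs and 13 protein-coding genes, 7 did not overlap between the lines as deposited, all higher in AxR, where 68.3% of all tested genes did not overlap in either direction and 35.1% were higher without overlap. With the copies added 10 of the 15 did not overlap, all higher, against 68.2% in either direction and 35.2% higher. Leaving out AxR replicate 3 raised the number of protein-coding genes called from 5 to 8, with mt-Co2, mt-Nd6 and mt-Cytb joining, and from 8 to 11 with the copies added, with mt-Nd4l, mt-Nd6 and mt-Cytb joining. With single libraries left out, 4124 to 4499 of all genes were higher and 3782 to 4112 lower as deposited. With the copies added these ranges were 4135 to 4508 and 3769 to 4108. Without AxR replicate 3, 13797 genes were tested as deposited and 13790 with the copies added.

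**Figure D4:**
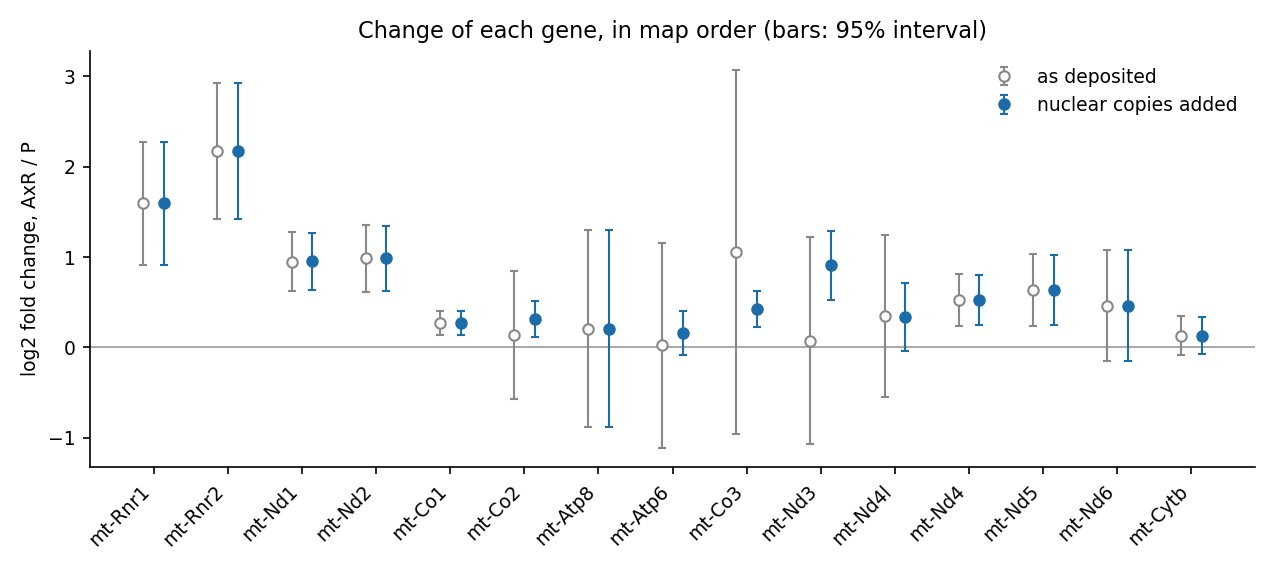
Log2 fold change, AxR over P, of the 2 mtDNA rRNAs and 13 protein-coding genes in map order, with 95% intervals derived from the edgeR F test, as deposited (open grey) and with nuclear copies added (blue). Adding the copies narrows the intervals of mt-Co2, mt-Atp6, mt-Co3, mt-Nd3 and mt-Nd4l, and values run from 0.13 for mt-Cytb to 2.18 for mt-Rnr2 with the copies added.

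The makeup of the mtDNA mRNAs was compared as the share of each gene. With the copies added, mt-Nd1 went from a mean of 5.33 to 7.78% of the protein-coding mtDNA counts between P and AxR, mt-Nd2 from 3.798 to 5.70%, and mt-Nd3 from 1.09 to 1.57%. mt-Nd5 went from 6.09 to 7.16% and mt-Nd4 from 8.20 to 8.97%. In the opposite direction, mt-Atp6 went from 14.2 to 12.1%, mt-Cytb from 11.1 to 9.24% and mt-Co2 from 10.2 to 9.68%. None of these 8 shares overlapped between the lines, and each had an exact permutation p of 0.1, the smallest possible, and an adjusted p of 0.167 over the 15 ratios, so none passed a threshold of 0.05. mt-Nd6, read from the minus strand, held 1.78% in P and 1.84% in AxR with overlap (exact permutation p = 0.8). These shares sum to a fixed total, so a gain in some genes lowers the others.

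Levels per kilobase of gene, with the copies added, placed the same genes at the top in both lines. In P, mt-Atp6 had 3867 ± 299 CPM per kb (SD, n = 3), mt-Co1 2997 ± 57.3, mt-Co2 2777 ± 71.3 and mt-Co3 2390 ± 93.5, and no library of one of these overlapped the next. In AxR they had 4330 ± 637, 3612 ± 364, 3461 ± 499 and 3204 ± 462 CPM per kb, and there the neighbours did overlap. At the low end of the mRNAs in P were mt-Nd4l at 683 ± 28.9, mt-Nd2 at 680 ± 66.5, mt-Nd6 at 638 ± 47.0, mt-Nd5 at 620 ± 51.6 and mt-Nd3 at 585 ± 95.03 CPM per kb, each of which overlapped its neighbour in that order. In AxR mt-Nd2 stood at 1346 ± 233 and mt-Nd3 at 1098 ± 142 CPM per kb, while mt-Nd4l, at 860 ± 168, and mt-Nd6, at 879 ± 235, were the lowest mRNAs. Lengths were those annotated, with no allowance for fragment length, and the shortest genes were mt-Atp8 (204 bases), mt-Nd4l (297 bases) and mt-Nd3 (348 bases). The parts of gene length and poly(A) selection in this order of genes were not tested.

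The AxR libraries differed more among themselves in mtDNA genes than in nuclear genes. With the copies added, the median coefficient of variation of the 13 protein-coding genes was 7.36% in P and 14.9% in AxR, and that of the rRNAs 9.34 and 29.8%. Among 2136 nuclear genes of at least 100 CPM in both lines, the median was 3.29% in P and 4.03% in AxR, and 95% of them lay under 9.20 and 10.7%. AxR replicate 1 was, with the copies added, the highest AxR library for 13 of 13 protein-coding genes and both rRNAs, and AxR replicate 3 the lowest. As deposited, AxR replicate 1 was highest for 9 and AxR replicate 3 lowest for 12 of the 13. In the nuclear genes AxR replicate 1 was highest for 962 and AxR replicate 3 lowest for 894 of 2136. Values of the mtDNA genes in a library may thus not be independent of one another.

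The nuclear genes of mitochondrial gene expression moved in both directions. Of 10 genes for mtDNA transcription, 2 were higher and 5 lower in AxR (32.8 and 30.8% of all tested genes), with a median log2 fold change of −0.29. Tfam, which packages mtDNA and starts transcription, was higher (0.40, adjusted p = 2.05e-05), as was Mterf4 (0.43, adjusted p = 0.00342), which acts in mitochondrial ribosome assembly. Tfb2m, the initiation factor that opens the promoter, was lower (−0.61, adjusted p = 7.49e-07), as was Mterf3 (−0.50, adjusted p = 5.13e-05), a regulator of mtDNA transcription and ribosome assembly. The count of 5 lower was 2 without P replicate 3 and 3 without P replicate 2, AxR replicate 1 or AxR replicate 2, with DESeq2 and with the replicate block.

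Of 11 genes for mtDNA replication and copy number, 0 were higher and 6 lower, beside 32.8 and 30.8% of all tested genes. The median of the 11 was −0.22. Among the lower genes were Ssbp1, the single-strand binding protein (−0.47, adjusted p = 3.29e-05), and Primpol, a primase and polymerase (−0.44, adjusted p = 1.61e-05). The number of mtDNA molecules per cell was not measured.

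Of 21 tested genes for RNA processing, polyadenylation and decay, 6 were higher and 7 lower, near the 32.8 and 30.8% of all tested genes. Their median was −0.06. Mtpap, the polymerase that adds the poly(A) tails, had 28.4, 26.6 and 27.6 CPM in P and 52.6, 53.2 and 53.6 CPM in AxR, with no overlap (log2 fold change 0.95, SE 0.0632, adjusted p = 5.41e-09). Lrpprc, which binds and stabilizes mitochondrial mRNAs, was higher by 0.53 (adjusted p = 2.49e-07). Fastkd1 and Fastkd3, RNA-binding proteins of the mitochondrion, were lower (−0.73, adjusted p = 1.75e-06, and −0.66, adjusted p = 3.44e-05). Mtpap lies on chromosome 18, where the median of the 318 genes tested was 0.50. Medians differed between chromosomes, and on those of the lowered genes they were −0.29 (chromosome 1, Tfb2m), −0.27 (chromosome 13, Mterf3 and Fastkd3), −0.18 (chromosome 8, Primpol), −0.09 (chromosome 2, Fastkd1) and 0.0081 (chromosome 6, Ssbp1). Of the higher genes, Lrpprc lies on chromosome 17 (median 0.18), Tfam on chromosome 10 (median 0.25) and Mterf4 on chromosome 1 (median −0.29). Whether the copy number of chromosomes had a part in these differences was not tested.

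Of 12 mitochondrial translation factors, 5 were higher and 4 lower, beside 32.8 and 30.8% of all tested genes, with a median of 0.12. Mtrf1l, a release factor, was higher by 0.52 (adjusted p = 0.00160) and Oxa1l, which inserts new proteins into the inner membrane, by 0.45 (adjusted p = 3.51e-05). Gfm2 and Mrrf, which recycle the ribosome, were lower by edgeR's quasi-likelihood test (−0.41, adjusted p = 0.000115, and −0.33, adjusted p = 0.00100). Of 78 proteins of the mitochondrial ribosome, which holds both rRNAs, 13 were higher and 26 lower. The lower count was near the 30.8% of all tested genes, of which 32.8% were higher. The median of the 78 was −0.03, beside log2 fold changes of 1.59 and 2.18 for the rRNAs. Mrps28 and Mrps18a were highest (0.51, adjusted p = 0.000190, and 0.42, adjusted p = 0.000291), and Mrps6 and Mrps22 lowest (−0.78, adjusted p = 7.04e-07, and −0.77, adjusted p = 1.08e-07). Medians of their chromosomes were 0.32 (chromosome 3, Mrps28), 0.18 (chromosome 17, Mrps18a), −0.32 (chromosome 16, Mrps6) and −0.23 (chromosome 9, Mrps22).

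Nuclear subunits of the respiratory chain and ATP synthase were counted as the partners of the mtDNA proteins. They were grouped by gene symbol prefix only, so that Ndufa4 (0.56, higher) was counted under complex I. Of 78 tested, 32 were higher and 21 lower, beside 32.8 and 30.8% of all tested genes, with a median of 0.06. Complex I had 16 higher and 8 lower of 37 (median 0.07), from Ndufa1 at 1.04 (adjusted p = 2.85e-06) and Ndufa2 at 0.70 (adjusted p = 3.40e-06) to Ndufs4 at −0.25 (adjusted p = 0.00520) among the lower ones. Complex III had 3 higher and 3 lower of 9, with Uqcrh at 0.73 and Uqcr11 at 0.70, and Uqcrq at −0.22 and Uqcrb at −0.35. Complex IV had 4 higher and 5 lower of 12, with Cox6a2 at 0.72 and Cox7a2l at 0.56, and Cox8a at −0.37 and Cox6a1 at −0.38. ATP synthase had 8 higher and 3 lower of 16 (median 0.20), with Atp5f1 at 0.95 and Atp5a1, on chromosome 18, at 0.69, and Atp5j at −0.32 and Atp5o at −0.47. Complex II, which takes no subunit from mtDNA, had 1 higher and 2 lower of 4, with Sdhb at 0.26, Sdha at −0.38 and Sdhc at −0.39. Each of these named subunits passed the test. Atp5o and Atp5j lie on chromosome 16, with a median of −0.32 over all its tested genes, and Atp5f1 on chromosome 3, with a median of 0.32. Cox8a and Uqcrq lie on chromosomes 19 and 11, whose medians were 0.0014 and 0.0077. Uqcrb and Sdha lie on chromosome 13 (median −0.27), Sdhc on chromosome 1 (median −0.29) and Cox6a1 on chromosome 5 (median −0.16). Uqcr11 lies on chromosome 10 (median 0.25) and Cox7a2l on chromosome 17 (median 0.18). Cox6a2 lies on chromosome 7 (median 0.18), and Uqcrh and Sdhb on chromosome 4 (median 0.09). Of the named complex I genes, Ndufa1 lies on chromosome X (median 0.24), Ndufa2 on chromosome 18 (median 0.50) and Ndufs4 on chromosome 13 (median −0.27).

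**Figure D5:**
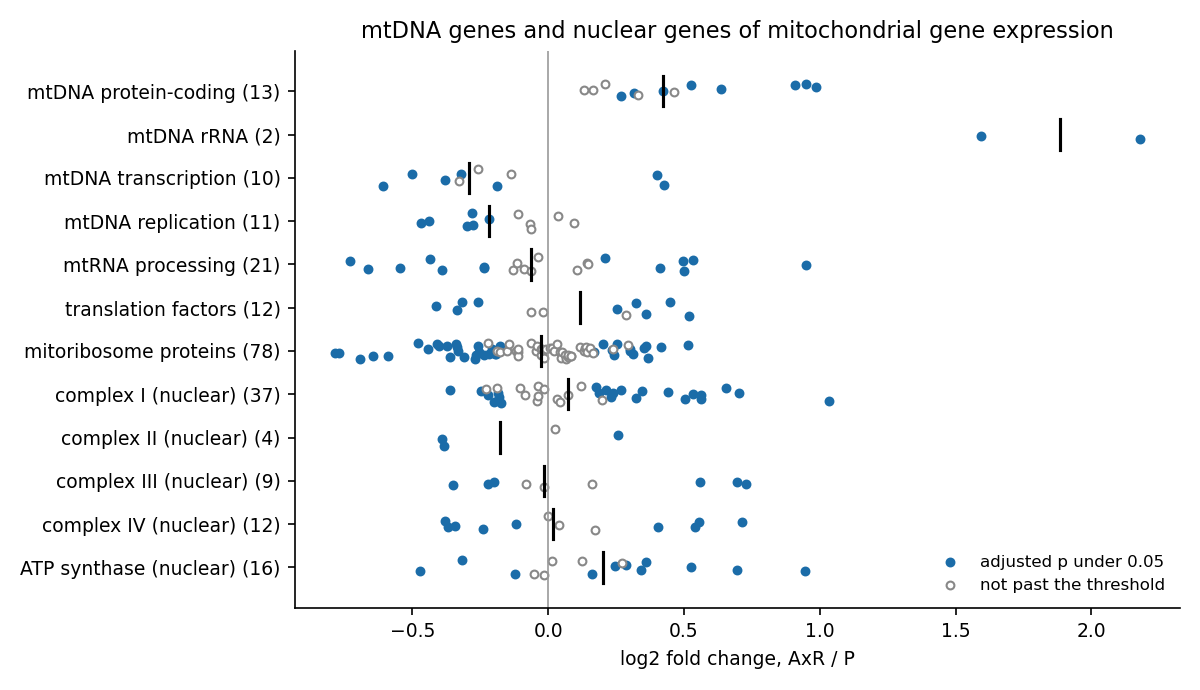
Log2 fold change, AxR over P, of mtDNA genes (copies added) and of nuclear gene lists, 1 point per tested gene with the number tested after each list name. Blue points have an adjusted p under 0.05 and open points do not, and bars mark medians, which are 0.42 for the mtDNA protein-coding genes and between −0.29 and 0.20 for the nuclear lists.

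Levels of general mitochondrial and regulatory genes gave a mixed picture. The counts of these lists stand beside 32.8% higher and 30.8% lower of all tested genes. Of 10 outer membrane and matrix genes, 5 were higher and 1 lower, with a median of 0.12, with Hspa9, a matrix chaperone on chromosome 18, higher by 0.75 (adjusted p = 2.91e-09) and Tfam by 0.40. Hspd1, the matrix chaperonin, was lower by edgeR's quasi-likelihood test (−0.12, adjusted p = 0.0487), a call that was lost in most alternatives. Of 6 tested regulators of mitochondrial biogenesis, 0 were higher and 3 lower, with a median of −0.13, including Gabpa (−0.66, adjusted p = 1.33e-07) and Pprc1 (−0.48, adjusted p = 3.55e-06). Gabpa lies on chromosome 16 (median −0.32) and Pprc1 on chromosome 19 (median 0.0014). Of 7 tested stress genes, 3 were higher and 1 lower, with Hspa1b at 1.44 (adjusted p = 9.79e-10), Ddit3 at 1.00 (adjusted p = 1.49e-07) and Jun at −0.77 (adjusted p = 0.00314). The part of these genes in the mtDNA differences was not tested, and in bulk RNA fewer cells of a kind and less RNA per cell cannot be told apart.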

How the data were processed

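RNA of 3 P and 3 AxR samples was sequenced from stranded poly(A)-selected libraries. The authors aligned reads to GRCm38 (GENCODE M16) with STAR 2.6.0a and deposited estimated counts per gene from RSEM 1.3.1, which divides reads matching several genes among them. Per the submitters' processing notes, read quality was checked with FastQC 0.11.5. Of a library's values, 10.3 to 10.7% held a fraction of a count.

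Estimated counts were rounded to whole numbers. After filterByExpr and upper quartile normalization, the robust quasi-likelihood F test of edgeR 4.0.16 (R 4.3.3) was run, with Benjamini-Hochberg adjustment over the 13550 genes tested and a threshold of 0.05. The test gives no SE, so each SE was derived as the absolute log2 fold change over the square root of F. The 95% intervals are that SE times a t quantile. CPM are counts scaled by normalized library size, with factors between 0.966 and 1.02. Shares and ratios were compared with exact two-sided permutation tests (SciPy 1.17.1). GENCODE M21, on the same build, gave symbols, positions and lengths, and held 53274 of 53465 identifiers. Nuclear copies of mtDNA were annotated genes that matched mtDNA over at least 80% of their exons and 100 bases at 90% identity or more (BLAST 2.17.0).

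All 37 mtDNA genes are named or counted. In each nuclear list the highest 2 and lowest 2 log2 fold changes past the threshold are named, and among nuclear copies the 4 with most counts. Some genes that this rule would name are not reported here. The members and lists were chosen with earlier results of these data known. The histone and small RNA lists and the added copies were chosen after seeing the values. Alternatives were TMM, library size only, upper quartile without mtDNA genes, DESeq2 1.42.0, limma-voom (limma 3.58.1), other filters and thresholds, a replicate block, other denominators and each library left out. The edgeR test was also tried on simulated counts, in which far fewer genes were changed than were called in these data. Each library was counted as its own sample. Libraries of a line differed by more than sampling noise (chi-square per degree of freedom 5.06 to 19.5), which cannot show that they were separate cultures.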

Additional observations from a re-analysis of the deposited data

How the results depend on the processing

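Both rRNAs were higher under every alternative run, with log2 fold changes of 1.36 to 1.78 for mt-Rnr1 and 1.92 to 2.36 for mt-Rnr2 when single libraries were left out. Of the counts and shares that answer a comparison, 231 values kept their direction and stayed within 1.5 times the reported value or on its side of the threshold, 13 moved and 4 turned direction. The number of protein-coding mtDNA genes higher in AxR was 5, ranged from 4 (without P replicate 2) to 8 (without AxR replicate 3), and was 0 when a difference of 1 or more on the log2 scale was also asked for, which left 1083 genes higher and 640 lower of all tested. With the nuclear copies added it was 8, also with TMM, library size only and DESeq2, and ranged from 7 to 11 with single libraries left out. The number of all genes higher in AxR then ranged from 4135 to 4508, and from 4124 to 4499 as deposited. The difference in mtDNA share was 0.468 to 0.726 percentage points without single libraries, where the smallest exact p is 0.2.

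Of values that did not pass the threshold, some turned direction with single libraries left out, and the cause was not tested. Log2 fold changes then ranged from −0.037 to 0.36 for mt-Co2, from −0.069 to 0.41 for mt-Atp8 (from −0.068 with the copies added) and from −0.24 to 0.38 for mt-Atp6, with −0.18 without AxR replicate 3. The log2 fold change of mt-Nd3 ranged from −0.24 to 0.40, and was −0.082 without AxR replicate 2. Log2 ratios to protein-coding counts ranged from −0.093 to 0.094 for minus-strand genes, from −0.66 to 0.035 for mt-Nd3, from −0.28 to 0.10 for mt-Nd4l and from −0.094 to 0.094 for mt-Nd6. With the copies added the ratios turned to 0.042, 0.52 and 0.041 for minus-strand genes, mt-Nd3 and mt-Nd6, and over all mtDNA counts that of mt-Nd4 turned to −0.048. mt-Cytb passed with no filter on low counts (adjusted p = 0.0493, edgeR).

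Same-numbered libraries did not deviate together (correlations −0.0154, −0.0226 and −0.0527), so the numbers were not taken as pairs. With a replicate block 5 protein-coding genes and 2 rRNAs were still higher, mt-Rnr1 by 1.56 and mt-Rnr2 by 2.14. The number of all genes higher in AxR was 4304 and of all genes lower in AxR 4023, against 4441 and 4167 without it. Genes for mtDNA transcription that were lower went from 5 to 3 of 10. The tRNAs, with at most 3 counts in a library, could not be compared, and the parts of depth and library preparation were not tested.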
